A study of Rattus norvegicus with 14 samples.

Results

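The genes of the complement and blood clotting systems that the liver supplies to plasma were followed through normal rat liver, liver in which progenitor cells were expanding, and chemically induced liver lesions. The list held 36 genes. A gene was measured where at least 1 array probe set, a group of short oligonucleotides for a single transcript, carried that symbol and no other. That was so for 32 of the 36 genes among the 14497 genes measured in all. C2 and Cfb shared a probe set, C4b shared one with C4a, and no probe set carried C5 as its only symbol, so these 4 genes are not described.

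Complement is a cascade of plasma proteases that marks foreign or damaged surfaces. It starts at antibodies (classical pathway), at microbial sugars (lectin pathway) or spontaneously (alternative pathway), meets at C3, and ends in a pore built from C5b to C9. Coagulation is a second cascade, started by tissue factor or by surface contact, that ends in thrombin and fibrin, and fibrinolysis dissolves the clot again. Hepatocytes make most of these proteins, and their genes are commonly placed under hepatocyte transcription factors such as HNF1, HNF4 and C/EBP and under inflammatory cytokines.

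Transcripts were measured on Affymetrix Rat Gene ST 1.0 arrays from laser-captured regions of formalin-fixed, paraffin-embedded liver of 12 male F344 rats, an inbred strain, with 3 animals in each of 4 groups. Normal liver came from adult rats. AAF/PH liver came from rats given a 2.5 mg pellet of 2-acetylaminofluorene (AAF), which blocks hepatocyte division, on day 1, with release over 14 days. They underwent partial hepatectomy (PH) on day 7 and were killed on day 14, a protocol in which oval cells, the progenitor cells of the liver, multiply. Both foci groups received diethylnitrosamine at 200 mg/kg on day 1 and AAF on day 14, and were hepatectomised on day 21. A further pellet, lasting 21 days, was placed at that operation. It held placebo, or rapamycin, an inhibitor of the growth-controlling kinase mTOR, at 2.5 mg/kg per day. On day 70 the persistent lesions were captured, found by their staining for GSTP, a glutathione S-transferase used as a lesion marker. Both foci groups therefore shared carcinogen, AAF and hepatectomy, and differed in the last pellet only. Tissue around the lesions was not analysed here, so a lesion cannot be told apart from the whole protocol in a comparison with normal liver. Values are array intensities, which allow a probe set to be compared between animals but not with another probe set.

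The arrays differed in ways that bear on these genes. The interquartile range of log2 intensity over all genes, a measure of how widely an array spreads its signal, was 2.36 to 2.80 in normal liver, 1.98 to 2.26 in AAF/PH liver, 2.14 to 2.61 in placebo foci and 1.61 to 2.50 in rapamycin foci. The narrowest belonged to rapamycin animal 3, whose 3 arrays (including a new laser capture) correlated at 0.97 with each other and were averaged into 1 value. Each result was therefore also computed after quantile normalization, which gives every animal the same spread. Cell type markers moved as well. The summed intensity of 10 hepatocyte markers was 37718 to 42112 in normal liver, 22594 to 26081 in AAF/PH liver, 28755 to 33627 in placebo foci and 24716 to 37407 in rapamycin foci. Single hepatocyte markers differed from normal liver by -1.99 to 0.90 on the log2 scale in AAF/PH liver. Their median difference was -0.72 in AAF/PH liver, -0.57 in placebo foci and -0.48 in rapamycin foci. After quantile normalization it was -0.25, -0.26 and -0.18. The summed intensity of 7 biliary and oval cell markers was 122 to 147 in normal liver, 422 to 630 in AAF/PH liver, 369 to 606 in placebo foci and 202 to 382 in rapamycin foci. For 10 stellate cell and matrix markers it was 700 to 950, 1872 to 4852, 835 to 1193 and 617 to 902 in the same order. Since the lowest deposited intensity was 2.143, no marker could be listed at 0. Whether each marker was above background was not tested. The part of composition in the results was not tested, and in tissue RNA fewer hepatocytes and less RNA per hepatocyte cannot be told apart.

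Against normal liver most of the 32 genes fell in AAF/PH liver and in placebo foci, and a minority passed the test in rapamycin foci. Differences are given as log2 differences of group means ± standard error, with 3 animals per group, so that a value of -1 is a halving of intensity. They were tested with limma in 1 fit of all 12 animals, and a gene was called where its Benjamini-Hochberg adjusted p over all genes was under 0.05. In AAF/PH liver 28 of 32 genes fell and 1, C7, rose, where 12.5% of all genes fell and 7.54% rose (20% in all). In placebo foci 21 fell and 0 rose, against 5.38% of all genes falling and 2.84% rising (8.22% in all). In rapamycin foci 13 fell and 0 rose, against 4.93% and 1.6% (6.53% in all). The median difference of the 32 genes was -1.44 in AAF/PH liver, -1.07 in placebo foci and -0.88 in rapamycin foci. Over all genes it was 0.12, 0.04 and 0.07, and with each animal centred on its own median the 32 genes stood at -1.55, -1.13 and -0.96. These 3 comparisons share the normal animals. Among the 7618 genes with an intensity of at least 32 in at least 3 animals, which hold all 32 described here, the shares that fell were 23.2%, 10% and 9.78%.

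**Figure D1:**
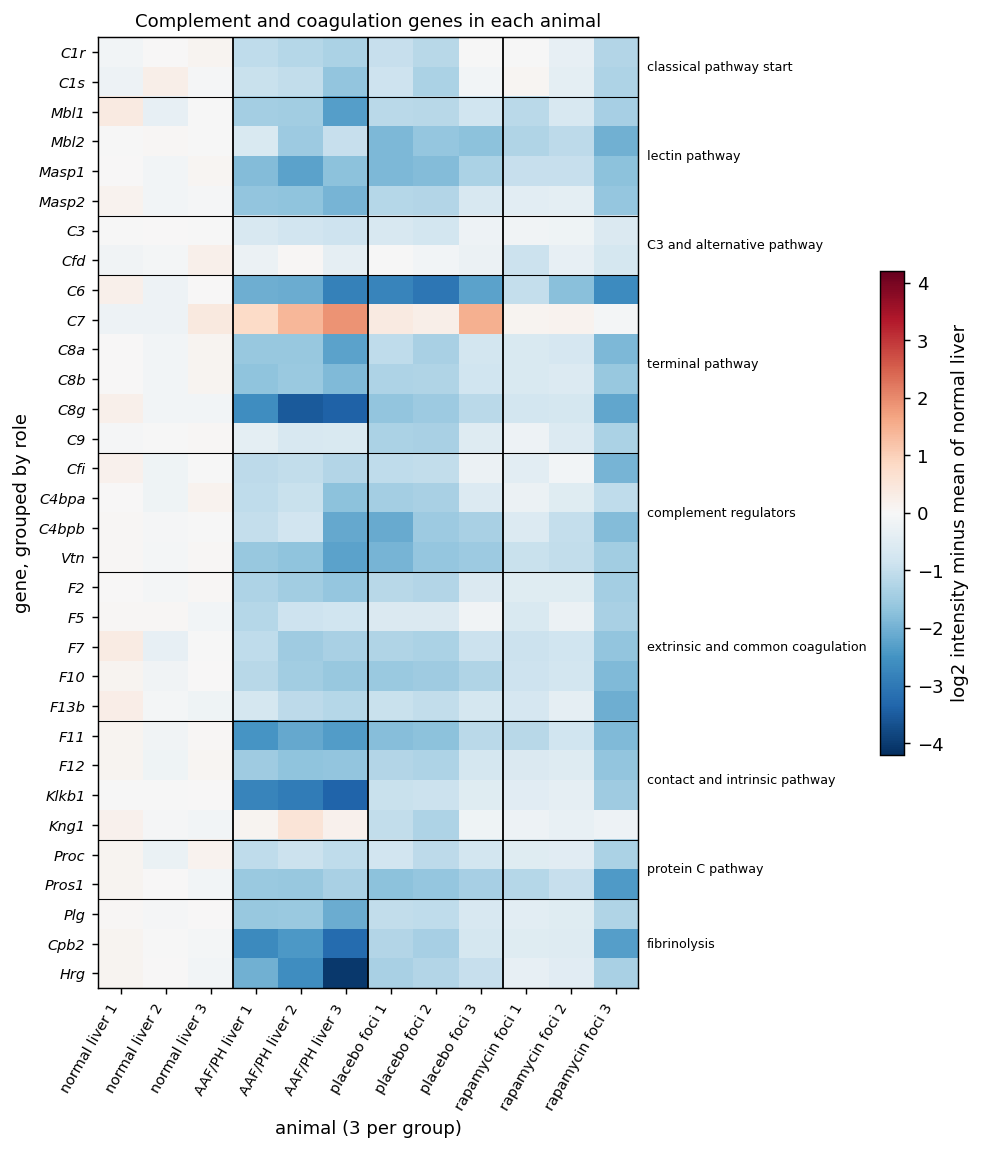
Log2 intensity of each of the 32 genes (rows, by role) in each of the 12 animals (columns), minus the mean of the 3 normal livers; blue is lower and red higher than normal liver. C7 is red in every AAF/PH animal, while Kng1 is at most faintly red there (a mean difference of 0.28, not called). Rapamycin animal 3 is bluer than the other rapamycin animals.

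The fall was visible animal by animal. The 3 animals of AAF/PH liver lay below all 3 normal animals for 29 of the 32 genes, which 22.2% of all genes also did. In placebo foci this held for 28 genes (15.7% of all genes) and in rapamycin foci for 28 (14.6%). The median of the 32 log2 values relative to normal liver was -1.25, -1.47 and -1.66 in the AAF/PH animals, -1.21, -1.29 and -0.75 in the placebo animals and -0.59, -0.52 and -1.54 in the rapamycin animals. Placebo animal 3 had the widest spread of its group and the mildest fall, and rapamycin animal 3 the narrowest spread and the deepest fall. After quantile normalization the medians were -0.61, -0.57 and -0.96, then -0.64, -0.64 and -0.52, then -0.28, -0.37 and -0.27, so that every animal of the 3 groups remained below the normal livers and rapamycin animal 3 no longer stood apart. The number of genes called lower became 19 in AAF/PH liver, 15 in placebo foci and 5 in rapamycin foci, with 2, 0 and 0 called higher. The shares of all genes on that scale were 10.7%, 4.86% and 3.06% lower and 9.75%, 4.61% and 2.26% higher. The median differences became -0.73, -0.61 and -0.29.

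**Figure D2:**
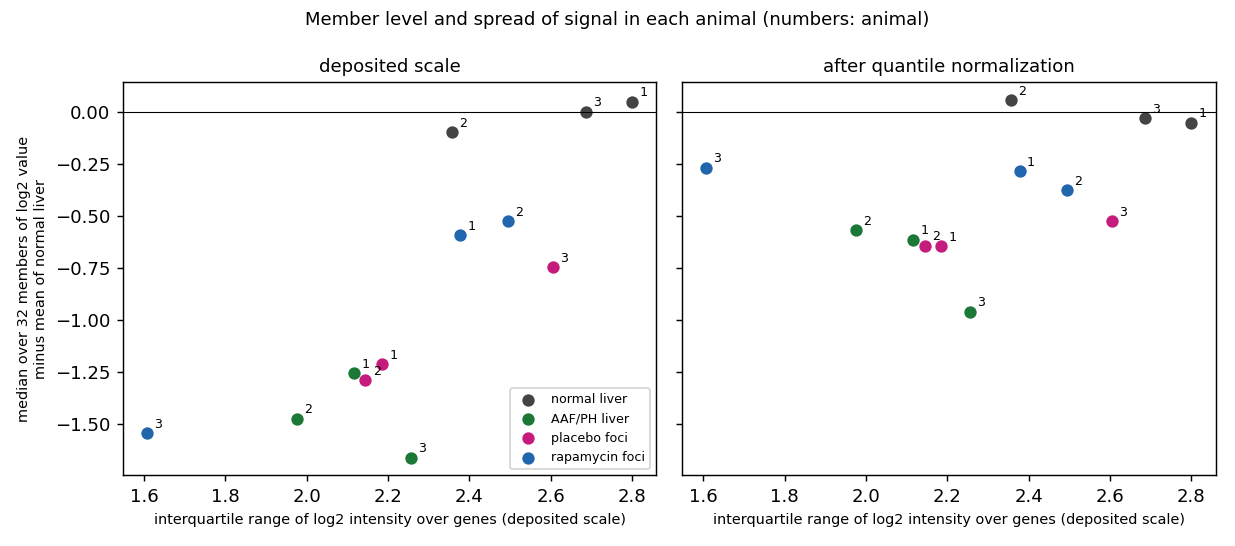
Median over the 32 genes of log2 intensity minus the mean of normal liver (vertical axis) against the interquartile range of log2 intensity over all genes (horizontal axis) for the 12 animals, on the deposited scale (left) and after quantile normalization (right). On the left rapamycin animal 3 has the narrowest spread (1.61) and a median of -1.54, while the lowest median, -1.66, belongs to AAF/PH animal 3 at a spread of 2.26; on the right all 9 treated animals lie between -0.96 and -0.27.

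Counts of calls depended on single animals in the foci. In placebo foci the 21 calls became 9 without normal animal 1, 10 without normal animal 3, 9 when placebo animal 1 was left out and 10 when placebo animal 2 was. Over all genes the 1192 calls became 606, 688, 675 and 763 in the same order. In rapamycin foci the 13 became 4 without normal animal 1, 6 without normal animal 3 and 23 without rapamycin animal 2. Over all genes the 947 calls became 224, 284 and 2051. Without rapamycin animal 3, 9 genes remained called lower in rapamycin foci with a median difference of -0.52, and the count in placebo foci, through the shared estimate of spread, was 29.

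**Figure D3:**
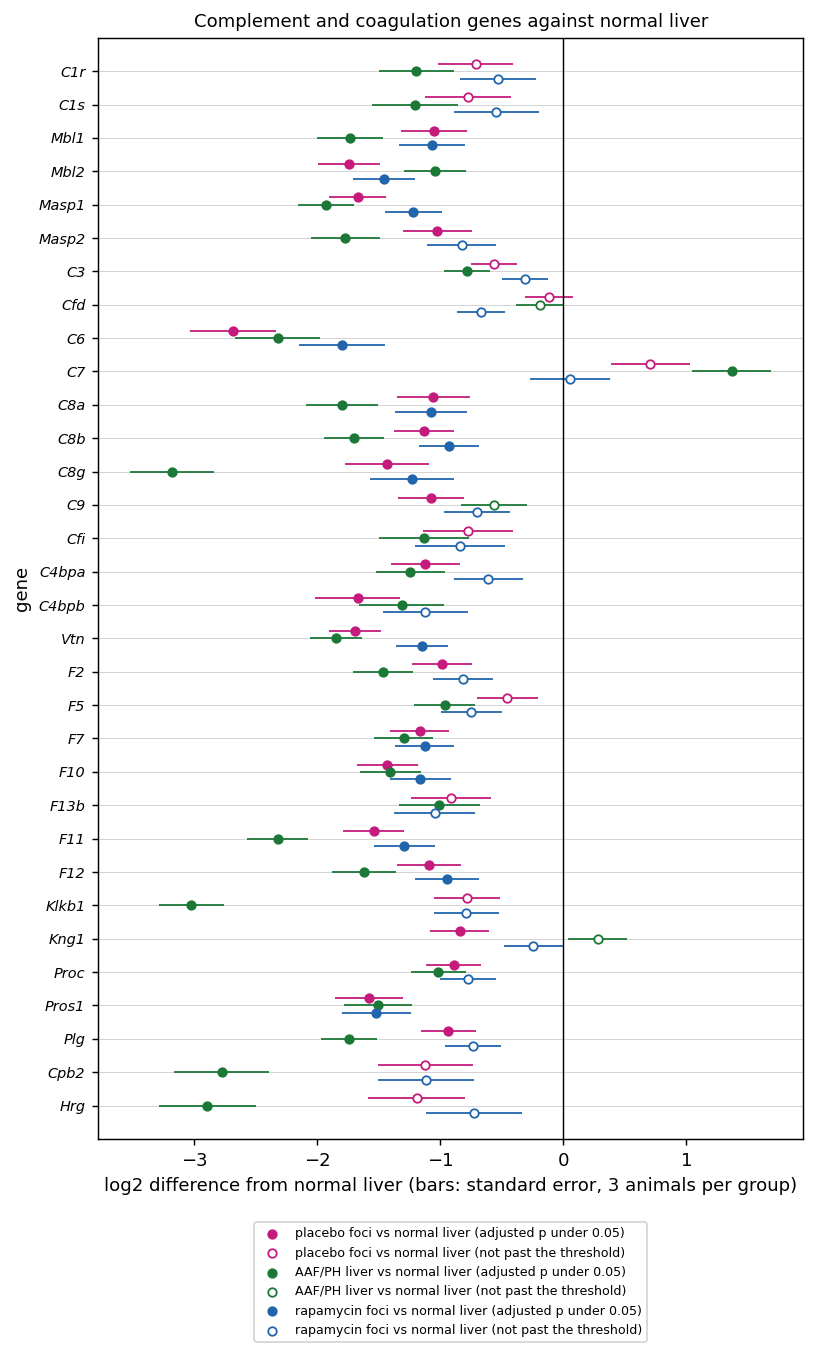
Log2 difference from normal liver for each gene in placebo foci, AAF/PH liver and rapamycin foci, with standard errors (3 animals per group); filled points have an adjusted p under 0.05. The green AAF/PH points of C8g, Klkb1, Hrg and Cpb2 lie farthest left, between -3.18 and -2.78, while those of C7 and Kng1 lie right of 0.

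Since so many of these genes moved together, their promoters were read for letters of the factors named above. RefSeq promoter windows of the rat assembly GRCr8 were found for 25 of the 32 genes, and the 250 bases before the annotated start were searched on both strands. The HNF1 half-site letters GTTAAT were in 7 of 25 windows (28%) and in 6.45% of all 33469 promoter windows. The 25 genes entered with a single window each. The 33469 windows were limited neither to a single window per gene nor to measured genes. The C/EBP letters TTGCNNAA were in 8 (32%) against 9.22%, and the STAT3 letters TTCNNNGAA in 4 (16%) against 7.67%. The HNF4 half-site letters CAAAGT were in 2 (8%) against 12.9%, and the NF-kB letters GGGNNTTCC in 2 (8%) against 5.09%. In C8b the HNF4 letters overlap the C/EBP letters. The 5 windows below show the 120 bases before the start of genes that carry the HNF1 half-site there (Proc, which does too, is not shown), with the half-site in capitals; they come from the precursor of plasmin, a clotting protease, a pore subunit, a complement inhibitor and a fibrin-stabilising factor. They lie at chr1:50915407-50915526 (Plg, minus strand), chr3:98065247-98065366 (F2, minus), chr5:124866632-124866751 (C8a, minus), chr13:44663472-44663591 (C4bpa, minus) and chr13:53681519-53681638 (F13b, plus).
Plg: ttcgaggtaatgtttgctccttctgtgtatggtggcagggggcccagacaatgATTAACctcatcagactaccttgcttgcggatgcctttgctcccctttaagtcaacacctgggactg
F2: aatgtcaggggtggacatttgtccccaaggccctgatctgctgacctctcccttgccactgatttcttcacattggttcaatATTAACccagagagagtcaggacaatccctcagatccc
C8a: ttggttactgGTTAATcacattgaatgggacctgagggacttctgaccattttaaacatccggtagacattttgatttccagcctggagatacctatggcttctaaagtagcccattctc
C4bpa: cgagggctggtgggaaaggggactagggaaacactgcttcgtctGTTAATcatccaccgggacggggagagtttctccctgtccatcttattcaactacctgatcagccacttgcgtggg
F13b: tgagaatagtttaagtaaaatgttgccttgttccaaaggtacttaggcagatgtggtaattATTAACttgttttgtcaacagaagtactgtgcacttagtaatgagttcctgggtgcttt
All 5 genes fell in AAF/PH liver, with differences from -1.80 for C8a to -1.01 for F13b, where 28 of the 32 genes fell. On the quantile scale C4bpa and F13b were not called there, at -0.47 and -0.28. A match of letters is a description of the window and no evidence that a factor was bound.

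Of the classical pathway, C1r and C1s, the proteases of the first complex and direct neighbours on chromosome 4, fell in AAF/PH liver and passed the test in neither kind of foci. C1r (probe set 10858655) was at 1169.9, 1275 and 1355 in normal liver, 609, 552 and 502 in AAF/PH liver, 645, 567 and 1252 in placebo foci and 1256, 992 and 537 in rapamycin foci. Placebo animal 3 and rapamycin animal 1 were within the normal range, while the AAF/PH animals lay below it. The AAF/PH difference was -1.19 ± 0.31 (limma adjusted p = 0.0137) for C1r and -1.21 ± 0.35 (limma adjusted p = 0.0241) for C1s (probe set 10865442). In placebo foci they differed by -0.71 and -0.78 and in rapamycin foci by -0.53 and -0.54, none past the threshold. With rapamycin animal 3 left out of the shared fit, both were called lower in placebo foci. After quantile normalization neither gene was called in any of the 3 comparisons, at -0.38 for C1r and -0.36 for C1s in AAF/PH liver.

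The lectin pathway fell as a whole. Mbl1 and Mbl2, the mannose-binding lectins that recognise microbial sugars, and Masp1 and Masp2, the proteases they carry, were all called lower in AAF/PH liver and in placebo foci, and 3 of the 4 in rapamycin foci. Masp1 (probe set 10751948) was at 589.8, 537 and 609 in normal liver, 163, 121 and 177 in AAF/PH liver, 157, 165 and 229.7 in placebo foci and 295, 293 and 177 in rapamycin foci. No treated animal came near the normal range. Its differences were -1.93 ± 0.23 in AAF/PH liver (limma adjusted p = 5.07e-05), -1.67 ± 0.23 in placebo foci (0.000406) and -1.22 ± 0.23 in rapamycin foci (0.00763).

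Mbl2 (probe set 10714782) fell in all 3 groups as well. It was at 412, 441 and 413 in normal liver, 272, 145 and 218 in AAF/PH liver, 115, 136 and 129 in placebo foci and 177, 195 and 105 in rapamycin foci. All placebo animals lay below all AAF/PH animals. It fell by 1.74 ± 0.25 in placebo foci (limma adjusted p = 0.000551), by 1.46 ± 0.25 in rapamycin foci (0.0042) and by 1.04 ± 0.25 in AAF/PH liver (0.0091). After quantile normalization the AAF/PH difference of Mbl2 was -0.29 and no longer called, and Mbl2 was lower in placebo foci than in AAF/PH liver by -0.996 (limma adjusted p = 0.00532), which on the deposited scale it was not (-0.70, adjusted p = 0.165).

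Mbl1 (probe set 10787107) was at 308, 187 and 235 in normal liver, 88.2, 87.6 and 47.6 in AAF/PH liver, 108, 106 and 132 in placebo foci and 109.9, 148 and 90.3 in rapamycin foci. Masp2 (probe set 10874024) was at 672, 559 and 575, then 190.0, 186 and 154, then 264, 256 and 381, then 442, 451 and 194, in the same order of groups. Both were lowest in AAF/PH liver, with differences of -1.73 ± 0.27 and -1.77 ± 0.28 (limma adjusted p = 0.000383 and 0.000486). In placebo foci they were -1.05 and -1.02, and in rapamycin foci -1.07 (called) and -0.83 (not called). Quantile normalization ended the calls of Mbl1 in both kinds of foci, at -0.66 and -0.49, and that of Masp1 in rapamycin foci.

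C3, the protein on which all complement pathways converge, passed the test in AAF/PH liver. C3 (probe set 10931717) was at 4904, 4974 and 4933 in normal liver, 3109, 2807 and 2712 in AAF/PH liver, 3072, 2866 and 4227 in placebo foci and 4472, 4338 and 3232 in rapamycin foci. Every treated animal was below every normal animal. The difference was -0.78 ± 0.19 in AAF/PH liver (limma adjusted p = 0.00918) and, past no threshold, -0.56 ± 0.19 in placebo foci and -0.31 ± 0.19 in rapamycin foci. Cfd, the protease that starts the alternative pathway and is made mainly by fat cells, was dim, at 39.2 to 85.8 over the 12 animals, and was not called in any comparison. Its difference in AAF/PH liver was -0.19 ± 0.19 and turned to 0.10 on the quantile scale.

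Of the pore-forming proteins of the terminal pathway, C6, C8a, C8b and C8g fell in all 3 groups, C9 fell in placebo foci and C7 rose in AAF/PH liver. C8g encodes the gamma chain of C8, a lipocalin bound to the alpha chain. C8g (probe set 10843475) was at 1211, 961 and 972 in normal liver, 173, 89.7 and 98.7 in AAF/PH liver, 327, 366 and 479 in placebo foci and 608, 627 and 231 in rapamycin foci. The AAF/PH animals lay below every foci animal, which lay below every normal animal. Its difference of -3.18 ± 0.34 in AAF/PH liver (limma adjusted p = 2.08e-05), a 9.05-fold lower geometric mean, was the largest of the 32 genes. In placebo foci it was -1.43 ± 0.34 (0.0165) and in rapamycin foci -1.23 ± 0.34 (0.0465).

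C8a (probe set 10878400), the alpha chain, was at 854, 774 and 915 in normal liver, 284, 281 and 179.7 in AAF/PH liver, 408, 331 and 498 in placebo foci and 542, 517 and 231 in rapamycin foci. C8b (probe set 10870445), the beta chain and the neighbour of C8a on chromosome 5, was at 563, 519 and 604, then 174, 190.3 and 155, then 226, 236 and 316, then 362, 378 and 187. Their AAF/PH differences were -1.80 ± 0.29 and -1.70 ± 0.24 (limma adjusted p = 0.000657 and 0.000213). Of the 3 chains, C8a lost its calls in both kinds of foci under quantile normalization, and C8b and C8g theirs in rapamycin foci. The log2 ratio of C8g to C8a within an animal was 0.09 to 0.50 in normal liver and -1.65 to -0.72 in AAF/PH liver, without overlap, and -0.32 to 0.14 in placebo foci and 0.00 to 0.28 in rapamycin foci. This ratio was chosen after the values were seen and was not tested.

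C6, which joins C5b to begin the pore, had the deepest fall of the 32 genes in both kinds of foci. C6 (probe set 10813253) was at 455, 343 and 397 in normal liver, 96.3, 92.7 and 55.6 in AAF/PH liver, 57.4, 48.2 and 84.2 in placebo foci and 199, 116 and 63.6 in rapamycin foci. Placebo and AAF/PH animals overlapped, and only rapamycin animals 1 and 2 lay above both groups. C6 fell by 2.69 ± 0.35 in placebo foci (limma adjusted p = 0.000226), by 2.32 ± 0.35 in AAF/PH liver (0.000302) and by 1.80 ± 0.35 in rapamycin foci (0.0084). It was called in all 3 comparisons on the quantile scale as well, at -2.23, -1.69 and -1.23.

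C7, which binds next and inserts the complex into membranes, went the other way. C7 (probe set 10821666) was dim in normal liver, at 19.5, 19.7 and 30.4 where the median of all probe sets was 19.84 to 21.01, and stood at 39.7, 59.6 and 84.6 in AAF/PH liver, 29.8, 26.8 and 63.4 in placebo foci and 24.3, 24.9 and 21.5 in rapamycin foci. The AAF/PH animals lay above all normal and all rapamycin animals, and only placebo animal 3 reached their range. C7 rose by 1.37 ± 0.32 in AAF/PH liver (limma adjusted p = 0.00807), where 27.4% of all genes had all 3 animals above normal liver, and the 0.71 ± 0.32 of placebo foci did not pass. Whether C7 was above background in normal liver was not tested. C7 and C6 lie on chromosome 2 with 1 protein-coding gene between them. The summed stellate cell markers rose in the same AAF/PH animals, with 7 of the 10 called higher (7.54% of all genes). Msln, a mesothelial gene, rose there by 1.66 ± 0.20. It was the only 1 called of 4 measured mesothelial and fat cell markers, whose median difference was 0.28. The part of these markers in C7 was not tested.

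C9, the subunit that closes the ring, fell in placebo foci. C9 (probe set 10813380) was at 1726, 1755 and 1840.5 in normal liver, 1334, 1125 and 1142 in AAF/PH liver, 706, 697 and 1209.6 in placebo foci and 1543, 1199 and 705 in rapamycin foci. The difference there was -1.08 ± 0.27 (limma adjusted p = 0.0209), while the -0.57 ± 0.27 of AAF/PH liver did not pass and turned to 0.06 on the quantile scale. On that scale C9 was lower in placebo foci than in AAF/PH liver, by -0.72 (limma adjusted p = 0.01). On the deposited scale this difference was -0.51 and not called.

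All 4 inhibitors of complement fell in AAF/PH liver and 3 of them in placebo foci. Vtn, vitronectin, which keeps the terminal complex out of membranes, was the only one called in rapamycin foci. Vtn (probe set 10736273) was at 3051, 2781 and 3056 in normal liver, 986, 913 and 619 in AAF/PH liver, 769.8, 961 and 1033 in placebo foci and 1538, 1441 and 1070.4 in rapamycin foci. All rapamycin animals were above all placebo animals and below all normal animals. The differences from normal liver were -1.85 ± 0.21 (limma adjusted p = 3.28e-05), -1.69 ± 0.21 (0.000167) and -1.15 ± 0.21 (0.0064) for AAF/PH liver, placebo foci and rapamycin foci. The call in rapamycin foci was lost under quantile normalization.

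C4bpa and C4bpb encode the chains of C4b-binding protein, which disarms C4b and, through the beta chain, binds protein S. C4bpa (probe set 10767422) was at 1564, 1368 and 1708 in normal liver, 729.8, 814 and 463 in AAF/PH liver, 572, 594 and 1044 in placebo foci and 1292, 1088 and 731 in rapamycin foci. C4bpb (probe set 10767436) was at 788, 748 and 761, then 385, 437 and 173, then 178, 264 and 295, then 518, 383 and 219. No treated animal reached the normal range of either gene. Placebo foci differed by -1.12 ± 0.28 and -1.67 ± 0.35 (limma adjusted p = 0.0209 and 0.00691) and AAF/PH liver by -1.24 ± 0.28 and -1.32 ± 0.35 (0.00611 and 0.0151). Cfi, factor I, the protease that cuts C3b and C4b, was at 694 to 886 in normal liver and 331 to 382 in AAF/PH liver, a difference of -1.13 ± 0.37 (0.0422). Of these 3 genes, C4bpb in placebo foci alone stayed called after quantile normalization (-1.13, adjusted p = 0.046).

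In the extrinsic and common pathways of coagulation all 5 genes fell in AAF/PH liver, F2, F7 and F10 in placebo foci, and F7 and F10 in rapamycin foci. F2, prothrombin, followed the mean of the 32 genes most closely over the 12 animals (Pearson r = 0.99, a description of a gene that is part of that mean). F2 (probe set 10847387) was at 1339, 1262 and 1376 in normal liver, 536, 481 and 427 in AAF/PH liver, 592, 570.5 and 878 in placebo foci and 923, 933 and 495 in rapamycin foci. Its levels in placebo foci lay between the AAF/PH and the normal animals without overlap. It fell by 1.47 ± 0.24 in AAF/PH liver (limma adjusted p = 0.000719) and by 0.99 ± 0.24 in placebo foci (0.0197), and the -0.82 ± 0.24 of rapamycin foci did not pass (0.0599).

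F7 and F10, the vitamin K-dependent proteases that act with tissue factor and on prothrombin, are direct neighbours on chromosome 16. F10 (probe set 10792820) was at 759, 636 and 709 in normal liver, 314, 253 and 231 in AAF/PH liver, 239.9, 248 and 294 in placebo foci and 386, 407 and 194 in rapamycin foci. F7 (probe set 10792832) was at 227, 140.1 and 176, then 84.8, 63.6 and 69.4, then 73.3, 71.4 and 93.8, then 94.6, 100.1 and 56.4. The 3 treated groups overlapped each other for both genes and stayed below normal liver. The differences ran from -1.43 to -1.16 for F10 and from -1.30 to -1.13 for F7, all called with limma adjusted p from 0.00114 to 0.0141. F7 was among the 5 genes still called in rapamycin foci on the quantile scale, and F10 was not.

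F5, the cofactor of factor Xa, and F13b, the carrier subunit of the fibrin-stabilising factor XIII, were called lower in AAF/PH liver. F5 (probe set 10765212) was at 212 to 240.3 in normal liver and 100.04 to 129 in AAF/PH liver, a difference of -0.96 ± 0.25 (limma adjusted p = 0.0135). F13b (probe set 10764447) was at 319 to 446 in normal liver and 159.9 to 217 in AAF/PH liver, a difference of -1.01 ± 0.33 (0.0433). Neither was called after quantile normalization, at -0.34 and -0.28.

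In the contact system F11, F12 and Klkb1 fell in AAF/PH liver while Kng1 did not. Klkb1 encodes plasma prekallikrein, which activates factor XII and frees bradykinin from kininogen, and its paralog F11 encodes factor XI and is its direct neighbour on chromosome 16. Klkb1 (probe set 10788278) was at 240.0, 245 and 251 in normal liver, 36.1, 31.7 and 24.0 in AAF/PH liver, 128, 130 and 174 in placebo foci and 175, 190.2 and 86.4 in rapamycin foci. The 4 groups formed 3 levels, with both kinds of foci overlapping each other and lying apart from normal and from AAF/PH liver. In AAF/PH liver Klkb1 differed by -3.02 ± 0.27 (limma adjusted p = 3.24e-06, the smallest of the 32 genes). Its intensities there are close to the median of all probe sets on those arrays, 22.75 to 23.75, and whether they are above background was not tested, so no fold is given. In placebo and rapamycin foci the differences of -0.78 ± 0.27 and -0.79 ± 0.27 did not pass (0.093 and 0.0877). With rapamycin animal 3 left out of the shared fit, all 4 contact genes, Klkb1 among them, were called lower in placebo foci.

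F11 (probe set 10788293) was at 259, 212 and 242 in normal liver, 42.6, 53.2 and 47.0 in AAF/PH liver, 69.1, 71.2 and 109 in placebo foci and 105, 132 and 65.3 in rapamycin foci. It was called lower in all 3 groups, by -2.32 ± 0.25, -1.54 ± 0.25 and -1.29 ± 0.25 (limma adjusted p = 2e-05, 0.00127 and 0.00817), also on the quantile scale. The log2 ratio of Klkb1 to F11 within an animal was -0.11 to 0.21 in normal liver, -0.97 to -0.24 in AAF/PH liver, 0.67 to 0.89 in placebo foci and 0.40 to 0.73 in rapamycin foci. The ratio lay below the normal range in AAF/PH liver and above it in foci. The pair was chosen after its values were seen, and the ratio was not tested.

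F12, factor XII, which starts the contact pathway, was at 612 to 748 in normal liver, 216 to 245 in AAF/PH liver, 284 to 413 in placebo foci and 219.8 to 473 in rapamycin foci (probe set 10794050). It fell by 1.62 ± 0.26, 1.09 ± 0.26 and 0.94 ± 0.26 (limma adjusted p = 0.000534, 0.0159 and 0.0435), the last not called on the quantile scale. Kng1 encodes kininogen, the substrate that carries bradykinin. Kng1 (probe set 10940477) was at 1939, 1655 and 1613 in normal liver, 1876, 2522 and 1953 in AAF/PH liver, 838, 711 and 1510.3 in placebo foci and 1498, 1399 and 1482 in rapamycin foci. The AAF/PH animals overlapped normal liver at its upper end and all foci animals lay below normal liver.

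Kng1 fell by 0.84 ± 0.24 in placebo foci (limma adjusted p = 0.0429) and differed by 0.28 ± 0.24 in AAF/PH liver (0.41). After quantile normalization it was called higher in AAF/PH liver, at 0.89 ± 0.24 (0.0169), and was no longer called in placebo foci, at -0.42. A dimmer second probe set of Kng1 (10755135) had geometric means of 49.81 in normal liver, 15.08 in AAF/PH liver, 11.15 in placebo foci and 32.35 in rapamycin foci. It correlated at 0.58 with the first over the 12 animals, and its AAF/PH difference of -1.72 ± 0.71 (0.0981) pointed the other way. Kng2, a near-identical kininogen gene whose transcripts the probes may share, differed by 0.15 ± 0.29 in AAF/PH liver and by -1.05 ± 0.29 in placebo foci (0.0385). Which kininogen gene these probe sets measure is uncertain.

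Klkb1, which fell in AAF/PH liver, and Kng1, which did not pass the test there, both carry the C/EBP letters (in capitals, as read on the opposite strand), at 208 and 214 bases before the start. The windows are the first 80 bases of the 250 searched, at chr16:53690976-53691055 (plus strand) and chr11:91340319-91340398 (minus strand) of GRCr8.
Klkb1: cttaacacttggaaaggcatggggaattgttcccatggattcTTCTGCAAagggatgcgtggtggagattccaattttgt
Kng1: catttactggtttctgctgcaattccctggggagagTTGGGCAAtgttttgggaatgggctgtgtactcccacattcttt

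The anticoagulant protein C pathway fell in AAF/PH liver and placebo foci. Pros1, protein S, cofactor of activated protein C, fell in all 3 groups. Pros1 (probe set 10930660) was at 362, 335 and 309 in normal liver, 113, 111 and 130.2 in AAF/PH liver, 101, 109 and 128 in placebo foci and 145, 170.0 and 64.7 in rapamycin foci. The differences were -1.51 ± 0.28, -1.58 ± 0.28 and -1.52 ± 0.28 (limma adjusted p = 0.00154, 0.00247 and 0.00641), and all 3 were called on the quantile scale. Proc (probe set 10803655), protein C itself, was at 446 to 592 in normal liver, 255 to 285 in AAF/PH liver, 249 to 313 in placebo foci and 214 to 385 in rapamycin foci. It fell by 1.01 ± 0.22 in AAF/PH liver (0.00552) and by 0.89 ± 0.22 in placebo foci (0.0221), calls that quantile normalization ended (-0.20 and -0.42).

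The fibrinolysis genes had the lowest median of any role in AAF/PH liver, at -2.78. Plg encodes plasminogen, Cpb2 the carboxypeptidase TAFI that slows plasmin formation, and Hrg histidine-rich glycoprotein, which binds plasminogen and heparin. Hrg (probe set 10755140) was at 3067, 2902 and 2629.8 in normal liver, 714, 466 and 172 in AAF/PH liver, 1102, 1227 and 1448 in placebo foci and 2238, 2054 and 1124 in rapamycin foci. Cpb2 (probe set 10781513) was at 1069, 972 and 945, then 156, 187 and 105, then 419.7, 379 and 599.8, then 706, 687 and 199. For both genes the AAF/PH animals were below every foci animal, and every foci animal was below normal liver. The AAF/PH differences were -2.89 ± 0.39 for Hrg and -2.78 ± 0.39 for Cpb2 (limma adjusted p = 0.00014 and 0.000172). Neither passed in placebo foci (-1.19 and -1.12) or rapamycin foci (-0.73 and -1.12). With rapamycin animal 3 left out of the shared fit, all 3 fibrinolysis genes were called lower in placebo foci.

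Plg (probe set 10717967) was at 2621, 2494 and 2565 in normal liver, 849, 867 and 607 in AAF/PH liver, 1243, 1209 and 1599 in placebo foci and 1896, 1789.8 and 1076 in rapamycin foci. These animals too were ordered without overlap, except that placebo and rapamycin foci overlapped. Plg fell by 1.74 ± 0.23 in AAF/PH liver (limma adjusted p = 9.74e-05) and by 0.93 ± 0.23 in placebo foci (0.0179). The -0.73 ± 0.23 of rapamycin foci did not pass. After quantile normalization the AAF/PH calls of all 3 fibrinolysis genes held and the placebo difference of Plg was -0.52 (0.0545).

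**Figure D4:**
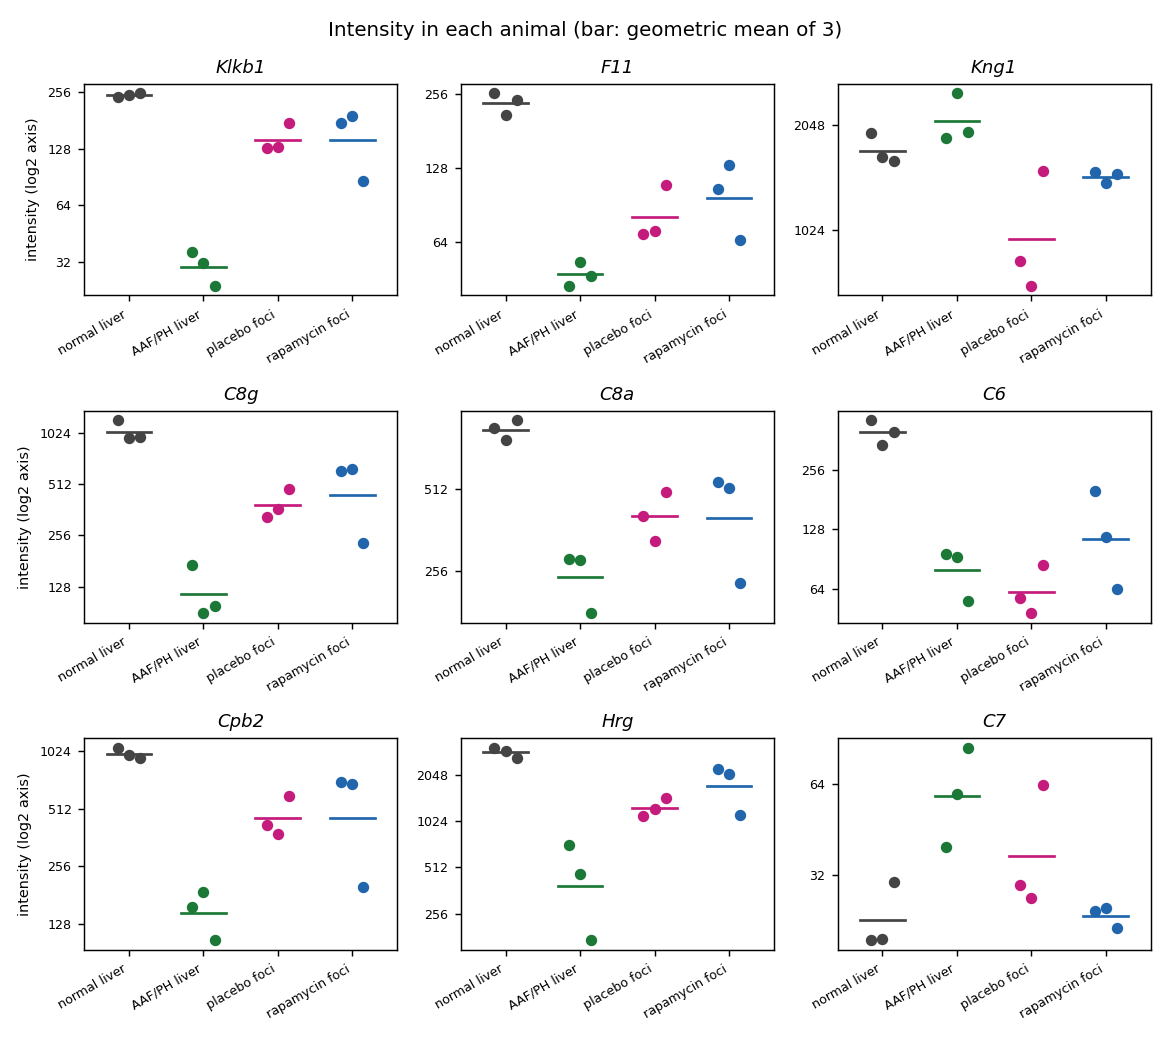
Intensity (log2 axis) of 9 genes in each of the 12 animals by group, with the geometric mean of 3 animals as a bar; each panel has its own axis. Klkb1, C8g, Cpb2 and Hrg have AAF/PH animals below all foci, C6 has placebo and AAF/PH animals at like levels, and Kng1 and C7 are highest in AAF/PH liver.

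Foci were then compared with AAF/PH liver directly. This tests whether the level differed between the 2 kinds of tissue, and both comparisons share the AAF/PH animals. The foci groups also differed from AAF/PH liver in diethylnitrosamine, the last pellet and the day of harvest (70 against 14). A lesion cannot be told apart from these in this comparison. In placebo foci C8g, Klkb1, Cpb2 and Hrg were higher and Kng1 lower than in AAF/PH liver, where 2.62% of all genes were higher and 1.57% lower (4.19% in all). Klkb1 differed by 2.24 ± 0.27 (limma adjusted p = 0.000161), C8g by 1.74 ± 0.34 (0.00825), Hrg by 1.70 ± 0.39 (0.0237) and Cpb2 by 1.66 ± 0.39 (0.0253). Kng1 differed by -1.12 ± 0.24 (0.0146), a difference of -0.44 ± 0.71 with its second probe set (0.835). The median difference of the 32 genes was 0.30, against -0.05 over all genes. With quantile normalization the median was 0.03, with 6 genes higher (F11 and Plg joined the 4) and 3 lower (Kng1, Mbl2 and C9). On that scale 4.79% of all genes were higher and 4.29% lower. The 5 calls became 2 without AAF/PH animal 2, AAF/PH animal 3, placebo animal 1 or placebo animal 2, 3 without placebo animal 3, and 12 without rapamycin animal 3, which enters through the shared spread. Over all genes the 608 calls became 355, 330, 339, 369, 367 and 1739 in the same order.

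In rapamycin foci 6 genes were higher than in AAF/PH liver (2.14% of all genes) and 1 lower (1.87%, 4.01% in all). For all 7 the animals of the 2 groups did not overlap, as was so for 5.44% of all genes in the higher and 8.12% in the lower direction. Klkb1 differed by 2.23 ± 0.27 (limma adjusted p = 0.000165), Hrg by 2.17 ± 0.39 (0.00465), C8g by 1.95 ± 0.34 (0.00374) and Cpb2 by 1.66 ± 0.39 (0.0243). F11 differed by 1.03 ± 0.25 (0.0302) and Plg by 1.01 ± 0.23 (0.0196), while C7 was lower by -1.31 ± 0.32 (0.0327). Without rapamycin animal 3, 21 genes were higher and 1 lower, and the shares of all genes were 10.4% and 3.8%. The 7 calls became 3 without AAF/PH animal 3, rapamycin animal 1 or rapamycin animal 2. Over all genes the 581 calls became 297, 338 and 419. With quantile normalization 10 were higher and 1 lower, with a median of 0.45 in place of 0.64. The shares of all genes on that scale were 4.6% higher and 5.21% lower.

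Rapamycin and placebo foci were compared to ask whether an earlier course of mTOR inhibition left a difference. None of the 32 genes, and none of all 14497 (0%), passed limma's adjusted threshold. At an unadjusted p under 0.05 there were 4 of the 32 genes and 3.33% of all genes. The 4 were C6, Kng1 and Vtn, higher in rapamycin foci, and Cfd, lower. C6 differed by 0.89 (95% interval 0.14 to 1.63), Kng1 by 0.60 (0.08 to 1.11), Vtn by 0.54 (0.09 to 0.99) and Cfd by -0.55 (-0.96 to -0.14), each with an adjusted p of 0.985. Vtn had all rapamycin animals above all placebo animals (3.62% of all genes did), and Cfd and C7 had them all below (2.41%). Klkb1 differed by -0.0047 (-0.57 to 0.56), an interval that leaves room for a change of either sign. The median of the 32 genes was 0.20, and 0.53 without rapamycin animal 3, where 0 of the 32 genes and 3 of all genes were called. Intervals this wide do not show that the lesions were alike.

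The other genes of both cascades were read from a list of 57, of which 49 were measured. Against normal liver 18 fell and 9 rose in AAF/PH liver, 17 fell and 0 rose in placebo foci, and 7 fell and 0 rose in rapamycin foci. All genes fell and rose at 12.5% and 7.54%, 5.38% and 2.84%, and 4.93% and 1.6%. The median differences were -0.16, -0.19 and -0.32. In AAF/PH liver the falls of smallest p were Vkorc1, the vitamin K reductase needed to activate factors II, VII, IX and X, by 2.94 ± 0.34, Serpinf2, the plasmin inhibitor antiplasmin, by 2.13 ± 0.26, Proz, protein Z, by 2.01 ± 0.26, and Cpn2, a subunit of carboxypeptidase N, by 2.07 ± 0.29 (limma adjusted p from 3.73e-05 to 0.000173). The rises were Procr, the endothelial protein C receptor, by 1.36 ± 0.23, Plat, tissue plasminogen activator, by 1.33 ± 0.24, Plau, urokinase, by 1.00 ± 0.18, and C5ar1, the C5a receptor of myeloid cells, by 0.76 ± 0.17 (0.000917 to 0.00575). A2m, alpha-2-macroglobulin, an acute phase protease trap in rats, rose by 2.56 ± 0.61 (0.00841) and was added after its value was seen. These 5 genes had geometric means of 21.13 to 25 in normal liver, near the probe-set median. The stellate cell marker sums given above were also higher in these animals, and their part was not tested.

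In placebo foci the falls of smallest p were Fga, the alpha chain of fibrinogen, by 1.16 ± 0.20 (limma adjusted p = 0.00244), Habp2, a protease that activates factor VII, by 1.47 ± 0.27 (0.00306), Serpinc1, antithrombin, by 1.23 ± 0.25 (0.00626), and Fgb, the fibrinogen beta chain, by 0.86 ± 0.18 (0.00756). Fgb had geometric means of 3098 in normal liver, 2771 in AAF/PH liver and 1701 in placebo foci, and it was lower in placebo foci than in AAF/PH liver by -0.70 ± 0.18 (0.0419). On the quantile scale 14 fell and 12 rose in AAF/PH liver, 10 fell and 3 rose in placebo foci, and 3 fell and 1 rose in rapamycin foci, where the shares of all genes were those given above for that scale. Fga and Habp2 remained called in placebo foci on that scale, as did Serpinc1, while Fgb did not (-0.48). In rapamycin foci the falls of smallest p were Vsig4, a complement receptor of liver macrophages, by 1.64 ± 0.34 (0.0111), Fcna, a ficolin, by 0.70 ± 0.15 (0.0143), Habp2 by 1.16 ± 0.27 (0.0192) and Cd46, a membrane cofactor of factor I, by 0.73 ± 0.19 (0.0344). Of 9 macrophage markers 4 were called lower in rapamycin foci (4.93% of all genes), with a median of -0.90. On the quantile scale 2 were called lower (3.06% of all genes), with a median of -0.61. Their summed intensity on the deposited scale was 706, 827 and 434 in rapamycin animals 1, 2 and 3, the last having the narrowest signal spread. In normal liver it was 1012 to 1214, and the part of these markers in Vsig4 and Fcna was not tested.

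**Figure D5:**
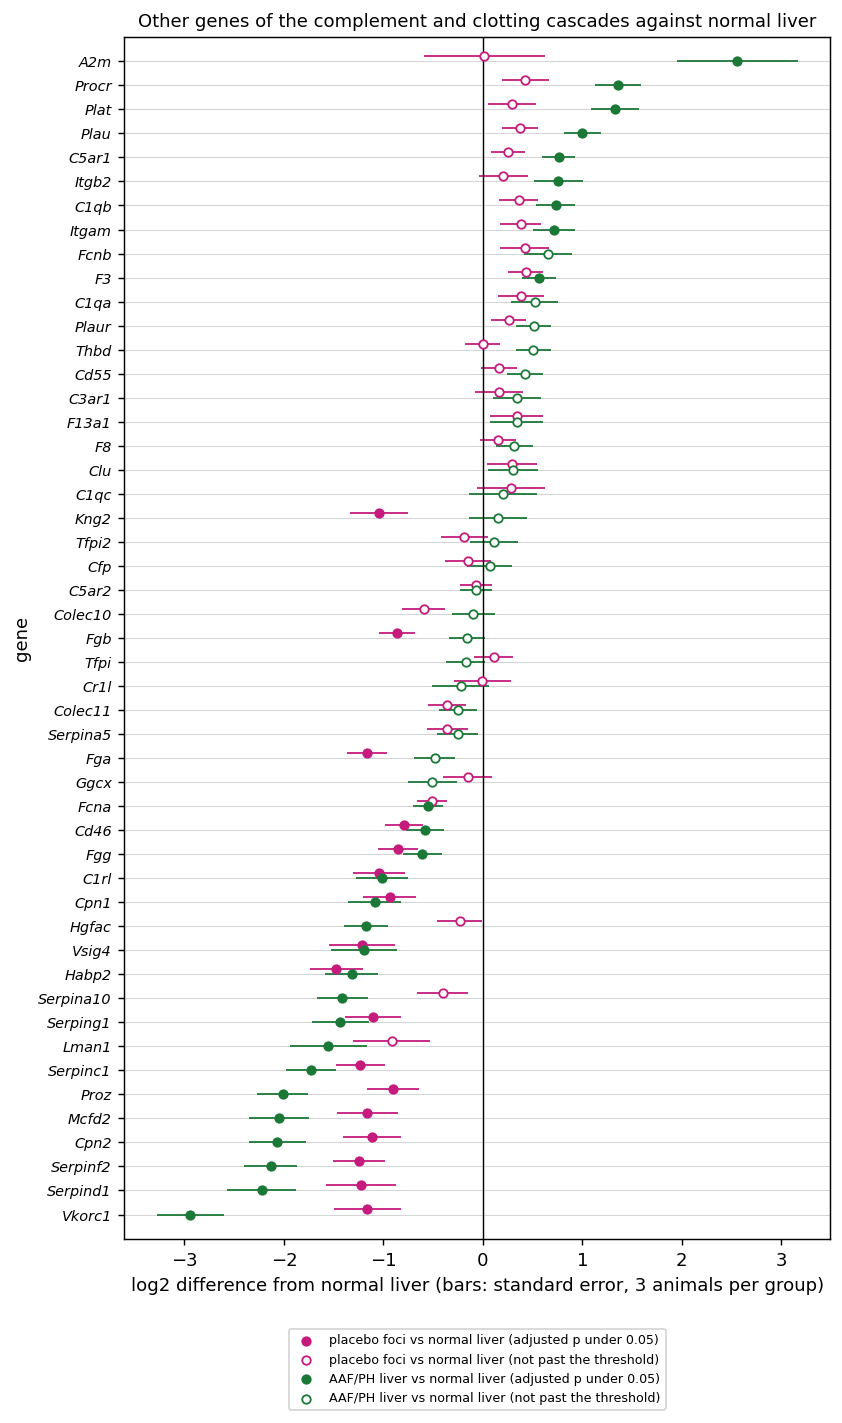
Log2 difference from normal liver in placebo foci and AAF/PH liver for the 49 other genes of both cascades, ordered by the AAF/PH difference, with standard errors (3 animals per group); filled points have an adjusted p under 0.05. Vkorc1 lies lowest at -2.94 and A2m highest at 2.56 in AAF/PH liver, and no gene is called higher in placebo foci.

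The hepatocyte transcription factors were also lower. Of 10 measured, 9 fell in AAF/PH liver, 5 in placebo foci and 5 in rapamycin foci, and 0 rose, where 12.5%, 5.38% and 4.93% of all genes fell. Foxa1, a pioneer factor of hepatocyte enhancers, fell by 1.82 ± 0.19, 1.57 ± 0.19 and 1.32 ± 0.19 in that order (limma adjusted p = 1.84e-05, 0.000157 and 0.00156), also on the quantile scale. Cebpa, the main C/EBP factor of resting hepatocytes, fell by 1.39 ± 0.20 in AAF/PH liver (0.000218) and was at -0.72 and not called on the quantile scale. Onecut1 fell by 1.72 ± 0.26 in placebo foci and by 1.89 ± 0.26 in rapamycin foci (0.000877 and 0.00115). On the quantile scale 5, 4 and 2 of the 10 were lower (10.7%, 4.86% and 3.06% of all genes), and Cebpb, the C/EBP factor of the acute phase, was higher in AAF/PH liver.

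Of 12 genes of the cytokine response, 2 rose and 4 fell in AAF/PH liver, 3 fell in placebo foci and 1 in rapamycin foci, beside 7.54% of all genes rising and 12.5% falling in AAF/PH liver and 5.38% and 4.93% falling in the foci. After quantile normalization 3 were higher and 1 lower in AAF/PH liver, 1 and 1 in placebo foci and 1 and 0 in rapamycin foci. The shares of all genes on that scale were 9.75% higher and 10.7% lower, 4.61% and 4.86%, and 2.26% and 3.06%. Lcn2, an iron-trapping acute phase protein, rose by 1.96 ± 0.22 in AAF/PH liver and Orm1, an acute phase plasma protein, by 1.20 ± 0.21 (limma adjusted p = 3.03e-05 and 0.00096). Il1rap, a subunit of the interleukin-1 receptor, fell by 1.55 ± 0.26 there (0.000725), and Il1r1, its partner, fell by 1.32 ± 0.30 in placebo foci (0.0127).

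Among genes outside the list, 5 had the pattern most like the mean of the 32 over the 12 animals, by Pearson r. They were Itih1 (0.99), Cd302 (0.99), Anpep (0.99), Serpinc1 (0.99) and Sdc2 (0.99). Within the list the genes least like that mean were C7 (-0.53), Kng1 (0.13) and Cfd (0.27). These correlations describe 12 animals that share 4 treatments and the differences in signal spread.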

How the data were processed

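The authors' deposited table held array intensity values on a linear scale, from 2.143 to 14037.8, for 28826 probe sets and 14 arrays. Per the submitters' processing notes Partek 6.6 and RMA were used, in a role those notes leave unstated. The interquartile range of the deposited values on the log2 scale ran from 1.61 to 2.80 over the animals, so whether they had been brought to 1 distribution by a quantile step over all arrays is doubtful. The deposited intensities were converted to log2 without a pseudocount (log2 values had been assumed in the design), and rapamycin animal 3 entered as the mean of its 3 log2 arrays. Symbols came from the platform annotation: 15209 probe sets had 1 symbol, 306 several and 13311 none. For genes with several probe sets the one with the highest mean was used, leaving 14497 genes.

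Group means were fitted with limma 3.58.1 in R 4.3.3 (lmFit and eBayes, 2-sided, 8 residual and 6.38 prior degrees of freedom), with the data.table package (version 1.17.8) for input, and Benjamini-Hochberg adjustment over all genes in each of 6 comparisons. The labels number the animals as biological replicates, and p-values measure the spread between them. Animal numbers did not pair the groups. Arrays have no read depth, and their number limits the precision.

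Genes given with every animal's value are those called in a comparison, up to 4 per role by smallest adjusted p. Other cascade genes are up to 4 per direction and comparison. C7, C9, Kng1, A2m and genes without a call were added after their values were seen. The members and lists were chosen with earlier results of these data known. The code was tested on simulated data. Alternatives were quantile normalization, median centring, a pseudocount of 16, a filter on low values, array weights, trended and robust moderation, fits of the 2 groups alone, the mean of probe sets, single arrays or a linear mean for rapamycin animal 3, an animal-number block, and leaving out each animal. The other Kng1 probe set was added after seeing the data.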

Additional observations from a re-analysis of the deposited data

Results flagged for a closer look

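A difference between foci and AAF/PH liver, both set against the same normal livers, passed the test for 12 gene and group pairs. In placebo foci Klkb1 stood 2.24 above AAF/PH liver on the log2 scale, C8g 1.74, Hrg 1.70 and Cpb2 1.66 (1.655 before rounding), and Kng1 stood at -1.12. In rapamycin foci Klkb1 stood 2.23 above AAF/PH liver, Hrg 2.17, C8g 1.95, Cpb2 1.66, F11 1.03 and Plg 1.01, and C7 stood at -1.31. The limma adjusted p-values ran from 0.000161 to 0.0327. For C8g, Klkb1, Cpb2 and Hrg the animals of both kinds of foci lay above all AAF/PH animals. The Kng1 difference was not called with its second probe set.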

How the results depend on the processing

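No called difference changed sign under any alternative run. After quantile normalization the count of genes called became 5 in rapamycin foci relative to normal liver (13 on the deposited scale), 9 for placebo (5) and 11 for rapamycin (7) foci when set against AAF/PH liver. Over all genes these counts became 771 (947), 1317 (608) and 1422 (581). The medians against normal liver became -0.61 in placebo foci, -0.73 in AAF/PH liver and -0.29 in rapamycin foci, and placebo foci minus AAF/PH liver became 0.027. Median centring gave 22 for rapamycin foci against normal liver, and 1427 over all genes. A pseudocount of 16 gave 3 and 4 for placebo and rapamycin foci against AAF/PH liver, array weights 12 and 12, and fits of the 2 groups alone 9 and 1. Over all genes these settings gave 514 and 481, then 2011 and 1264, then 1334 and 204. Fits of the 2 groups alone gave 3 for rapamycin foci against normal liver (210 over all genes). Trended, robust moderation gave 13 for placebo foci against normal liver (1157 over all genes, beside 1192 in the main fit). Leaving out each animal in turn gave 9 to 29 calls for placebo foci, 24 to 30 for AAF/PH and 4 to 23 for rapamycin animals set against normal liver, 2 to 12 and 3 to 22 for placebo and rapamycin foci against AAF/PH liver, with 0 between the foci groups. Over all genes these ranges were 606 to 2462, 1552 to 5208, 224 to 2051, 330 to 1739 and 297 to 2058, with 0 to 3 between foci. With animal number as a replicate block the counts were 17, 28 and 8 against normal liver, 5 and 6 against AAF/PH liver and 0 between foci. Over all genes they were 919, 2279 and 555, then 429 and 418, then 0. Each animal's deviations from its group mean were correlated between same-numbered animals of different groups. These correlations ran from -0.68 to 0.38 over 18 pairs, 7 of them over 0.1, so the numbers were not taken as a pairing. The causes were not tested. C7 and Cfd were dim in every group and Klkb1 in AAF/PH liver, which limits their precision. The same limit holds, among others, for C6 in placebo foci (48.2 to 84.2) and F11 in AAF/PH liver (42.6 to 53.2), which lay in the range of Cfd.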
